A study of Bursaphelenchus xylophilus with 12 samples.

Results

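After 12 h in emamectin benzoate (EB) at 0.1 mg/L, adult pine wood nematodes were set against worms kept as long in the adjuvant alone. The comparison took every library of the series labelled with 12 h, which were 6 of 12: EB12 replicates 1 to 3 and EC12 replicates 1 to 3. All were Bursaphelenchus xylophilus of strain NB-6, raised on the fungus Botrytis cinerea Pers. at 25 °C, and each library held the pooled RNA of 200 adults whose sexes the labels do not separate. The adjuvant was octylphenol polyoxyethylene-10 with n-butyl alcohol, given at the concentration that came with EB, so both groups had it. The labels call the control libraries EC and name the adjuvant treatment ON. EC12 was therefore read as the adjuvant control by elimination. The titles also carry a group number, 3 for EB12 and 2 for EC12, and whatever it marks cannot be told apart from the agent. Nothing in the labels ties the replicates to separate cultures. The p-values thus cover only the variation among these libraries, which may be technical. With whole worms pooled, fewer cells of a type and less RNA per cell cannot be told apart.

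Bursaphelenchus xylophilus lives in the resin canals of pines, is carried between trees by longhorn beetles and causes pine wilt disease. Emamectin benzoate is a semi-synthetic avermectin that is injected into pine trunks against it. In nematodes such as Caenorhabditis elegans, avermectins hold open glutamate-gated chloride channels of nerve and muscle, which paralyses body movement and the feeding pump, the pharynx. Responses of nematodes to such compounds are commonly sought among detoxification enzymes, ABC transporters and the channels themselves. The deposited table gives IDs with no names or descriptions, so no gene list of this kind was filled and genes are given by ID.

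The table listed FPKM, which is fragments divided by gene length and by library size, for 18036 IDs. The FPKM values summed to 861704 to 870950 in the EB12 libraries and 824088 to 845626 in the EC12 libraries, with no overlap (two-sided exact permutation test, p = 0.1, the lowest value possible with 3 against 3). The 100 most abundant IDs of each library held 20.9% to 23.6% of that sum in EB12 and 20.1% to 20.8% in EC12, also without overlap (two-sided exact permutation test, p = 0.1). Each library had 12543 to 13035 IDs at 1 FPKM or more, and the groups overlapped. Read totals are unknown. From the steps between low values, the depth relative to EC12 replicate 1 was read as 0.853 to 1.06 in the other 5 libraries, with second readings of 1.13 to 1.44. The 12931 IDs that reached 1 FPKM in at least 3 of the 6 libraries were tested on log2(FPKM + 1), a scale that understates the change of low genes. No ID stood at 0 in all 3 libraries of one group and at 1 FPKM or more in all 3 of the other.

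The 6 libraries did not sort by agent. Pearson correlations across the tested genes were 0.934 to 0.971 within EB12, 0.954 to 0.973 within EC12 and 0.928 to 0.978 between the groups. For 5 of the 6 libraries the most similar library belonged to the other group, the exception being EB12 replicate 1, which was nearest to EB12 replicate 3 at r = 0.971. The most similar pair was EB12 replicate 2 with EC12 replicate 2, at r = 0.978. The least similar was EB12 replicate 1 with EC12 replicate 3, at r = 0.928. Of the variance of log2(FPKM + 1) among the 6 libraries, 18.1% lay between the agents, which take 1 of the 5 degrees of freedom, and an even share would be 20%. Component 1 held 47.0% of the variance and 5.63% of it lay between the agents. EB12 replicates 1 and 3 and EC12 replicate 1 had negative scores on it, and EB12 replicate 2 and EC12 replicates 2 and 3 had positive ones. Component 3, with 12.1% of the variance, had the largest part between the agents, 47.2%. Genes are not independent replicates, and these correlations describe the libraries.

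**Figure D1:**
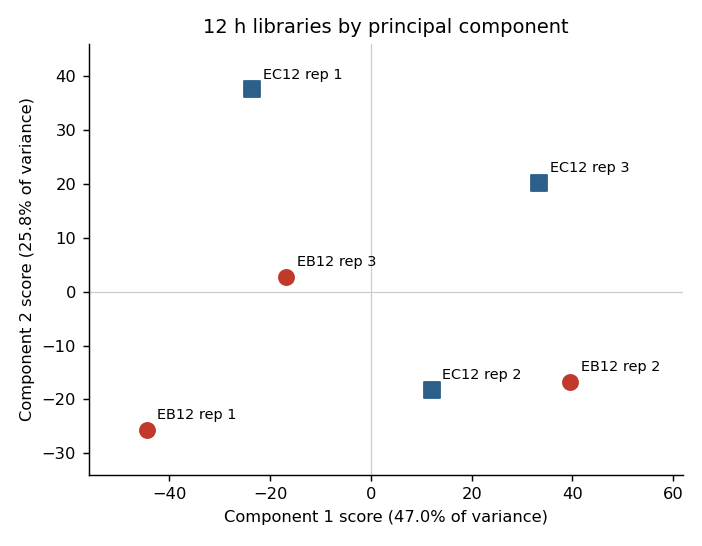
Scores of the 6 libraries at 12 h on principal components 1 and 2 of log2(FPKM + 1) over the tested genes (circles, EB12; squares, EC12). On component 1 (47.0% of the variance) EB12 scores run from -44.5 to 39.5 and EC12 scores from -23.6 to 33.4, so the groups are interleaved.

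No gene passed the test at 12 h. With the 6 libraries alone, limma gave 0 genes with a Benjamini-Hochberg adjusted p under 0.05 (0.0% of 12931), and the smallest adjusted p was 0.37. At an unadjusted p under 0.05 stood 531 genes, 171 higher and 360 lower with EB, which is 4.11% of the genes tested. A share of 0.05 of the tested genes would be 647. The 3 EB12 values and the 3 EC12 values did not overlap for 1271 genes (9.83%), of which 310 were higher and 961 lower with EB. Higher genes made up 24.4% of the non-overlapping genes with FPKM as deposited. Scaling by the median ratio of each library made it 40.7% (446 higher, 651 lower), and quantile normalization made it 31.2% (399 higher, 878 lower). At an unadjusted p under 0.05 higher genes made up 32.2%, and 51.4% and 39.8% with the same 2 scalings. That majority also turned with single libraries left out, to 179 higher and 124 lower without EB12 replicate 3 and to 251 higher and 207 lower without EC12 replicate 1. The median difference of all tested genes was -0.05 log2 units, and 0.01 and -0.02 with these scalings.

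Other estimates of the spread did give calls. A fit of all 12 libraries of the series, in which the less variable 24 h libraries enter the spread, called 17 genes (10 higher, 7 lower; limma, smallest adjusted p = 0.00187), and 1638 stood at an unadjusted p under 0.05. A fit with a weight per library also called 17 (11 higher, 6 lower; limma, smallest adjusted p = 0.0184). It gave EB12 replicate 3 a weight of 7.87 against 0.343 to 1.56 for the 5 others, so that the EB12 mean there is close to 1 library.

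**Figure D2:**
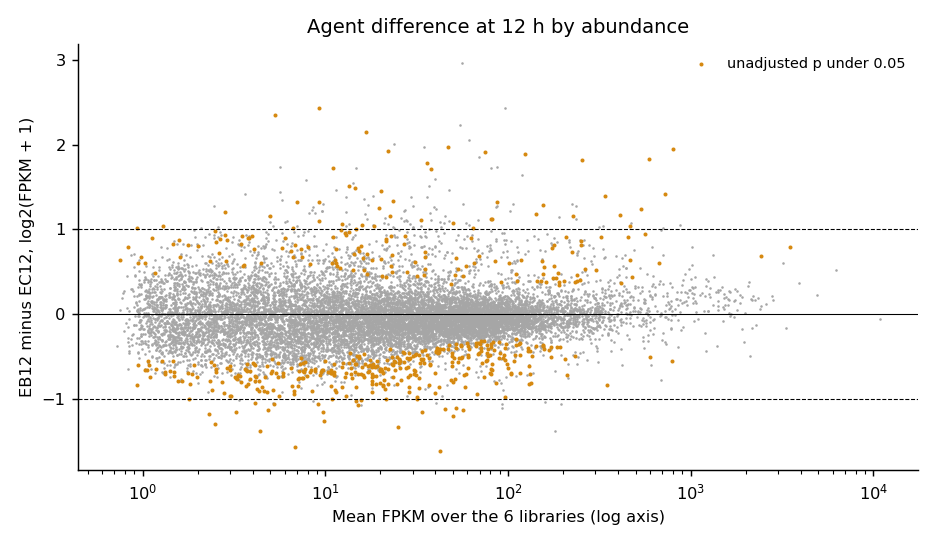
Difference EB12 minus EC12 on log2(FPKM + 1) for each of the 12931 tested genes (points) against the mean FPKM over the 6 libraries on a log axis, with the 531 genes at an unadjusted p under 0.05 in orange and dashed lines at 2-fold. Most points lie within the dashed lines, and 169 genes lie at or beyond them.

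The 6 libraries bounded the agent difference of most genes to less than 2-fold on the log2(FPKM + 1) scale. The 95% interval of the difference lay wholly within 1 log2 unit of 0 for 9498 genes, 73.5% of those tested. It lay within 0.5 log2 units for 1999 genes (15.5%) and within 2 log2 units for 12478 (96.5%). For 3433 genes (26.5%) the interval reached a 2-fold difference in at least one direction, so a change of that size was not bounded. The median interval extended 0.56 log2 units to each side, a factor of 1.47. With a pseudocount of 0.5 the share of intervals within 1 log2 unit of 0 was 66.9%, and with 0.1 it was 61.9%.

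The bounds were tightest in the middle to upper range of abundance. Among 2733 genes with a mean FPKM under 5, the median interval extended 0.69 log2 units to each side and 56.1% of intervals lay within 2-fold. At 5 to 20 FPKM these values were 0.64 and 62.3% of 3449 genes, and at 20 to 50 FPKM 0.48 and 83.2% of 2858 genes. The 3140 genes at 50 to 200 FPKM had the narrowest intervals, with a median of 0.41 log2 units to each side and 90.1% within 2-fold. The 751 genes at 200 FPKM or more stood at 0.44 and 81.4%. For low genes the pseudocount of 1 also draws values together, so their intervals bound the difference on the log2(FPKM + 1) scale and not of the FPKM itself.

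The share of genes whose groups did not overlap was close to the 9.83% of all tested genes in every class of abundance, from 9.04% at 50 to 200 FPKM to 10.5% at 5 to 20 FPKM. An arbitrary order of 3 against 3 values separates the groups in a share of 0.1 of cases, which is near these shares. Among such genes the direction differed between classes. All genes share the same 6 libraries, so these counts are not independent. Below 200 FPKM, lower genes outnumbered higher ones in all 4 classes, by 199 to 81 under 5 FPKM, 292 to 69 at 5 to 20, 222 to 51 at 20 to 50 and 228 to 56 at 50 to 200. That order held in these 4 classes with both other scalings. At 200 FPKM or more, 53 genes were higher and 20 lower as deposited, and 70 and 7 after median ratio scaling. The counts were 18 and 49 after quantile normalization, which gives every library the same values rank by rank. A joint shift of the most abundant genes is removed by that step, whatever its source.

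Of the 100 most abundant genes, 18 were higher with EB with no overlap and none was lower as deposited (2.4% and 7.43% of all tested genes). The counts were 22 and 0 after median ratio scaling and 2 and 5 after quantile normalization. Quantile normalization removes a joint shift of these genes by its design, so its counts cannot decide the direction. With single libraries left out, as deposited, 19 to 35 were higher and 0 to 5 lower, when 2 values are set against 3. Over all tested genes the share without overlap, in either direction, was then 14.6% to 26.3%. The median difference of these 100 genes was 0.19 log2 units, and 0.25 and 0.01 with these scalings. None of the 100 differed by 2-fold, the range being -0.50 to 0.80 log2 units, and for 80 the 95% interval lay within 2-fold. The sum of FPKM and the share of the 100 top IDs were also higher in EB12, and their part in this was not tested.

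**Figure D3:**
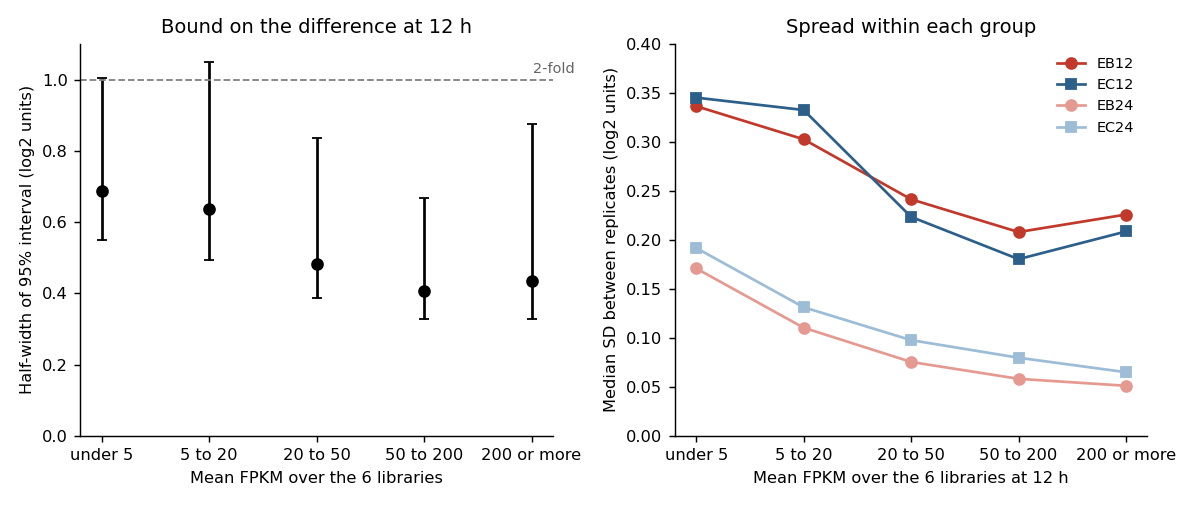
Left, the distance from the estimated difference to either end of its 95% interval, in log2 units, by class of mean FPKM (point, median gene; bars, 10th to 90th percentile of genes; dashed line, 2-fold). Right, the median SD between 3 replicates on log2(FPKM + 1) for the same classes in EB12, EC12, EB24 and EC24. The left medians fall from 0.69 to 0.41 and the 12 h lines lie above the 24 h lines in every class.

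Spread between replicates was nearly the same in the 2 groups. The SD of the median gene was 0.26 log2 units in EB12 and 0.26 in EC12, and EB12 had the larger SD for 52.0% of genes. Under 5 FPKM the median SDs were 0.34 in EB12 and 0.35 in EC12, and at 50 to 200 FPKM they were 0.21 and 0.18. At 200 FPKM or more they were 0.23 and 0.21. Each library's mean correlation with the 2 others of its group was 0.955 ± 0.009 in EB12 and 0.962 ± 0.005 in EC12 (SD, n = 3), and the groups overlapped (exact permutation test, two-sided, p = 0.3). At 24 h the same genes had median SDs of 0.09 in EB24 and 0.11 in EC24, and the intervals of the 24 h difference, fitted alone, were narrower than those at 12 h for 99.0% of genes.

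Within each group the spread was unevenly shared among the replicates. In EB12, replicate 2 was the library farthest from the mean of the other 2 for 49.4% of genes, replicate 1 for 31.4% and replicate 3 for 19.2%, where an even share is 33.3%. In EC12, replicate 1 was the farthest for 46.9% of genes, replicate 2 for 27.6% and replicate 3 for 25.5%. Without EB12 replicate 2 the median SD of EB12 was 0.16 log2 units, against 0.22 without replicate 1 and 0.28 without replicate 3. Without EC12 replicate 1 that of EC12 was 0.16, against 0.23 and 0.25 without replicates 2 and 3. These SDs come from 2 values each and are not on a par with those from 3. The number of genes at an unadjusted p under 0.05 moved with single libraries. From 531 it went to 982 when EB12 replicate 2 was left out, to 303 for EB12 replicate 3 and to 245 for EC12 replicate 3. No fit with a library left out gave a limma adjusted p under 0.05. The smallest was 0.0685, without EB12 replicate 2.

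A small set of genes was very uneven. The SD was at least 1 log2 unit for 549 genes in EB12 and 362 in EC12, and 251 genes had this in both, 45.7% of the EB12 set and 69.3% of the EC12 set. The same count over the tested genes was 2 in EB24 and 9 in EC24. In 280 of the 549 genes EB12 replicate 1 was the farthest library, lying above the others in 269. EB12 replicate 2 was the farthest in 247, lying above in 58. In EC12, replicate 1 was the farthest in 169 of 362, above the others in 124, and replicate 3 in 124, above in 6. With EB12 replicate 3 left out, 855 genes reached an SD of 1 in EB12.

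The large differences at 12 h lay mostly among such genes. As point estimates, 136 genes were at least 2-fold higher in EB12 and 33 at least 2-fold lower, together 1.31% of those tested. Among the 136 higher genes, 94 (69.1%) had an SD of at least 1 in at least one group, against 5.10% of all tested genes, and the groups did not overlap for 34 (25.0%), against 9.83% of all tested genes. EB12 replicate 1 was the highest library in 100 of the 136, and EC12 replicate 3 the lowest in 78. The median gene of this set stood 2.37 log2 units above its EC12 mean in EB12 replicate 1, 0.30 in replicate 2 and 1.20 in replicate 3. These values describe genes picked for the difference they show.

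The 33 lower genes were more even. Their median difference from the EC12 mean was -1.33, -0.91 and -1.36 log2 units in EB12 replicates 1, 2 and 3. Groups did not overlap for 17 of the 33 (51.5%, against 9.83% of all tested genes). An SD of at least 1 in a group was seen for 8 (24.2%, against 5.10% of all tested genes). The 33 were picked for their difference between these same groups, which favours groups that do not overlap. How many genes were 2-fold higher or lower depended on which library was left out. Higher genes numbered 64, 451 and 224 when EB12 replicates 1, 2 and 3 were left out in turn, and 271, 303 and 74 when EC12 replicates 1, 2 and 3 were. Lower genes numbered 53, 103 and 35 without EB12 replicates 1, 2 and 3 in turn, and 56, 82 and 39 without EC12 replicates 1, 2 and 3. Their count thus stayed close to 33 without replicate 3 of either group.

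**Figure D4:**
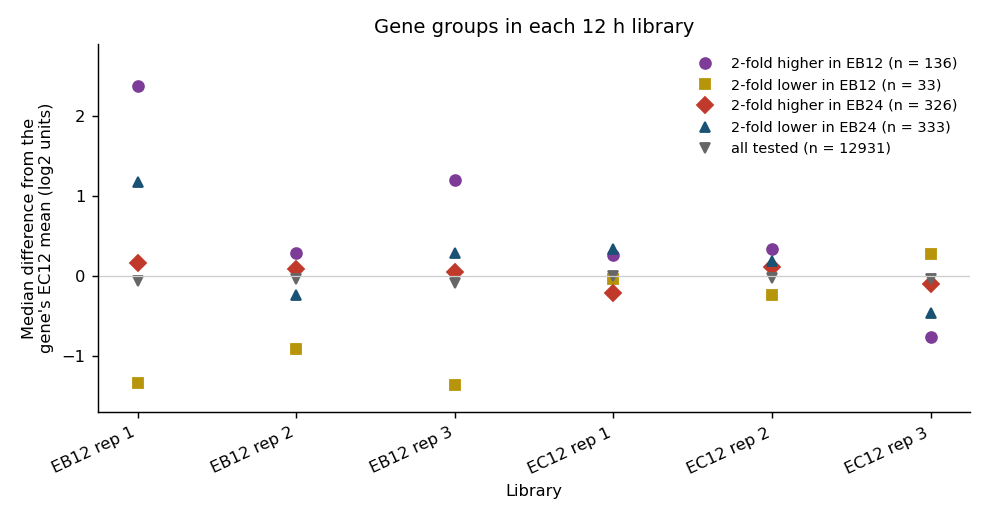
Median over genes of the difference from the gene's EC12 mean, in log2(FPKM + 1) units, in each library at 12 h for genes at least 2-fold higher or lower in EB12, genes at least 2-fold higher or lower in EB24 (limma adjusted p under 0.05 at 24 h), and all tested genes. Genes 2-fold higher in EB12 reach 2.37 in EB12 replicate 1 and 0.30 in EB12 replicate 2, while all tested genes stay between -0.08 and 0.00.

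The genes with the smallest p at 12 h showed groups well apart in level. They were chosen for that among 12931, so the values describe them. BXY_0325100 stood at 14.3, 19.8 and 17.5 FPKM in EC12 replicates 1, 2 and 3 and at 48.4, 67.05 and 61.3 in EB12 replicates 1, 2 and 3. All EB12 libraries lay well above all EC12 libraries. Its log2 difference was 1.72 ± 0.20 (SE; 95% interval 1.25 to 2.18; limma adjusted p = 0.37). With a library left out the difference stayed at 1.60 to 1.85, with limma adjusted p from 0.298 to 1.00.

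BXY_0293300 had 4.42, 6.52 and 5.13 FPKM in the EC12 libraries against 38.3, 23.5 and 21.7 in those of EB12. EB12 replicate 1 was the highest library, and the groups did not overlap. The log2 difference was 2.15 ± 0.28 (SE; 95% interval 1.51 to 2.79; limma adjusted p = 0.37), and 1.90 to 2.30 with a library left out.

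Among lower genes, BXY_0200700 had 31.8, 28.03 and 49.3 FPKM in the EC12 libraries against 13.4, 15.4 and 11.7 in those of EB12. EC12 replicate 3 was the highest of the 6 and the groups did not overlap. The log2 difference was -1.33 ± 0.25 (SE; 95% interval -1.91 to -0.76; limma adjusted p = 0.981). BXY_0512800 had 37.7, 43.6 and 47.2 FPKM in the EC12 libraries against 25.3, 20.7 and 17.05 in those of EB12, again with no overlap. Its log2 difference was -1.002 ± 0.20 (SE; 95% interval -1.47 to -0.54; limma adjusted p = 0.981).

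These 4 genes passed in both fits that gave calls. Both fits reuse the 12 h values for which the genes were chosen, so passing is no separate evidence. In the fit of all 12 libraries their limma adjusted p was 0.00187, 0.00187, 0.0275 and 0.0418 in the order given, and with a weight per library 0.0184, 0.0296, 0.0394 and 0.0394. Over the 16 alternatives the limma adjusted p of each reached 1.00 at its highest.

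**Figure D5:**
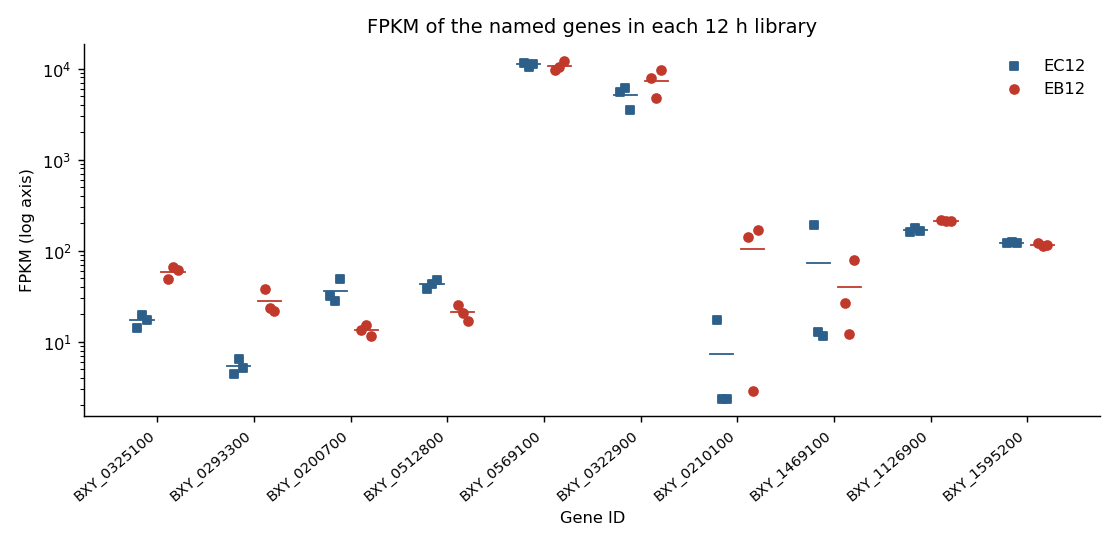
FPKM on a log axis of the 10 named genes in each library at 12 h (squares, EC12; circles, EB12; bars, group means; n = 3). For the 4 genes on the left the groups are apart, while BXY_0210100 spans 2.88 to 170 FPKM within EB12 and BXY_1469100 spans 11.6 to 194 within EC12.

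The most abundant gene, BXY_0569100, had 11552, 10525 and 11266 FPKM in the EC12 libraries against 9569, 10511 and 12151 in those of EB12. The groups overlapped, with EB12 holding both the lowest and the highest value, and the 95% interval of the log2 difference ran from -0.69 to 0.58. BXY_0322900, the next most abundant, had 5570, 6184 and 3500 FPKM in the EC12 libraries against 7839, 4726 and 9555 in those of EB12. EB12 replicates 1 and 3 were the highest of the 6 while replicate 2 lay within the EC12 range, and the log2 difference was 0.52 ± 0.36 (SE; limma adjusted p = 0.981). It was 0.09 after quantile normalization, 0.30 without EB12 replicate 3 and 0.27 without EC12 replicate 3, against 0.81 without EB12 replicate 2 and 1.04 with weights per library (limma adjusted p from 0.0951 to 1.00 over the alternatives).

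The gene most uneven in EB12 among those with a mean of at least 20 FPKM was BXY_0210100, at 143, 2.88 and 170 FPKM in EB12 replicates 1, 2 and 3 and at 17.3, 2.34 and 2.35 in EC12. EB12 replicate 2 lay at the level of EC12 replicates 2 and 3, far below the 2 other EB12 libraries. Although its point estimate was the largest in size of all tested genes, at 2.96 log2 units, the 95% interval ran from -0.28 to 6.20 (limma adjusted p = 0.981). The estimate was 2.01 without EB12 replicate 3, 4.74 without EB12 replicate 2 (95% interval 2.99 to 6.48) and 5.09 with weights per library (3.15 to 7.02), and the replicate block narrowed the interval to 0.81 to 5.11. The limma adjusted p was 0.0771 to 1.00 over these and the other alternatives. At 24 h the gene stood at 0.07 to 1.60 FPKM in all 6 libraries. The gene most uneven in EC12, BXY_1469100, had 194, 12.7 and 11.6 FPKM in the EC12 libraries against 27.0, 12.2 and 79.9 in those of EB12. EC12 replicate 1 was its highest library, followed by EB12 replicate 3 and EB12 replicate 1, and at 24 h it stood at 0.18 to 1.58 FPKM. Its log2 difference was -0.05, with a 95% interval of -2.54 to 2.44.

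At the other end, BXY_1126900 had the narrowest interval among genes with a mean of at least 50 FPKM. It had 163, 176 and 167 FPKM in the EC12 libraries against 217, 213 and 212 in those of EB12, with no overlap, and its log2 difference was 0.34 (95% interval 0.06 to 0.63; limma adjusted p = 0.981). BXY_1595200 had 122.8, 123.9 and 121.1 FPKM in the EC12 libraries against 120.6, 114.1 and 116.0 in those of EB12. All EB12 values of BXY_1595200 lay below all EC12 values, by a log2 difference of -0.07 (95% interval -0.35 to 0.22; limma adjusted p = 0.981).

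The 24 h libraries, which share no library with those at 12 h, gave a difference against which the 12 h bounds can be read. Fitted alone, the 24 h libraries called 7136 of the 12931 genes (55.2%; limma adjusted p under 0.05), of which 659 (5.1%) differed by at least 2-fold, 326 higher and 333 lower in EB24. For 518 of the 659 genes (78.6%) the 12 h interval left out the 24 h estimate, against 30.5% of all tested genes. The 659 were picked for a large 24 h estimate, which a 12 h interval leaves out more readily. The 30.5% comes from all genes, without such a choice, so the contrast is partly built in. The 12 h interval still held the 24 h estimate for 141 of the 659. At 12 h, 38 of the 659 (5.77%) had an unadjusted p under 0.05, against 4.11% of all tested genes, and 20 of these 38 had the sign they had at 24 h. With a library at 12 h left out, the count of 518 became 436 to 533.

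Genes higher and genes lower at 24 h are given apart. The 326 genes higher in EB24, with a median log2 difference of 1.16 at 24 h, had a median of 0.10 at 12 h, and 207 (63.5%) had the same sign, against 42.1% of all tested genes above 0 at 12 h. The 333 genes lower in EB24, with a median of -1.27 at 24 h, had a median of 0.45 at 12 h, and 83 (24.9%) had the same sign, against 57.9% of all tested genes below 0 at 12 h. Of these 333 genes, 181 (54.4%) had an SD of at least 1 in a 12 h group, against 34 (10.4%) of the 326 higher genes. Their median stood 1.18 log2 units above the EC12 mean in EB12 replicate 1, 0.29 in EB12 replicate 3 and 0.34 in EC12 replicate 1, and at -0.23 in EB12 replicate 2 and -0.46 in EC12 replicate 3. The 12 h median of the 333 genes was 0.09 and 0.84 when EB12 replicates 1 and 2 were left out, and 0.68 and 0.16 when EC12 replicates 1 and 3 were. That of the 326 genes was 0.02 and 0.18 when EC12 replicates 1 and 2 were left out.

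Of the genes at an unadjusted p under 0.05 at 12 h, 259 of 531 (48.8%) had the same sign at 24 h, against 44.7% of all tested genes, and 297 (55.9%) were called at 24 h, against 55.2%. BXY_0325100 had 7.47 ± 0.595 FPKM at 24 h in EC24 against 9.27 ± 0.561 in EB24 (SD, n = 3), below every 12 h library, with a log2 difference of 0.28 (limma adjusted p = 0.0459, 24 h libraries alone). BXY_0293300 had 6.71 ± 0.325 FPKM in EC24 against 4.93 ± 0.183 in EB24, on the other side of the control than at 12 h (log2 difference -0.38, limma adjusted p = 0.0136). BXY_0200700 was lower at 24 h too, at 43.7 ± 5.75 FPKM in EC24 and 30.1 ± 1.65 in EB24 (log2 difference -0.52, limma adjusted p = 0.00184). BXY_0512800 had 22.7 ± 1.06 FPKM in EC24 against 22.6 ± 3.40 in EB24 (log2 difference -0.02, limma adjusted p = 0.898), so that both 24 h groups lay near the EB12 level of 21.03 ± 4.15. Tested as an interaction over 12 libraries, the agent difference was not the same at the 2 times for 1120 genes (8.66%; limma adjusted p under 0.05). BXY_0325100, BXY_0293300 and BXY_0512800 were among them. That fit shares 1 estimate of the spread, although the 12 h libraries were more variable than those at 24 h. Only the 12 h titles carry a group number, so whatever it marks cannot be told apart from this change between the times.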

How the data were processed

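Messenger RNA of 12 samples was profiled, and the 6 libraries at 12 h were compared, grouped by their titles. The authors deposited a single table of FPKM, rounded to 2 decimals. Per the submitters' processing notes, TopHat2 2.1.1 was used. Which genome build, annotation and counting tool were used, and how strand was handled, is not given in the sources used here. Reads that overlapping genes or close copies share could have gone to either. Because FPKM is scaled to the library, a change in abundant genes shifts all others. All value columns matched a title.

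From these, log2(FPKM + 1) was fitted on the 6 libraries with limma 3.58.1 in R 4.3.3 (1 mean per group, eBayes with trend), two-sided, with Benjamini-Hochberg adjustment over the 12931 genes and 95% intervals from the moderated variance. The fit was tested on simulated data. The 24 h libraries were fitted alone on the same genes, and the difference between the times was tested as an interaction over 12 libraries. Single values per library were compared by exact permutation with scipy 1.17.1. FPKM values are not counts, so no count model was fitted. Relative depth is the tallest peak of the ratios to EC12 replicate 1 among genes at 0.4 to 4 FPKM, and counting intervals cannot be given.

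Named genes are the 2 higher and the 2 lower with the smallest p among genes that averaged 5 FPKM or more and whose groups did not overlap, the 2 most abundant, the 1 with the largest SD in each group (mean of at least 20 FPKM) and the 2 with the narrowest interval (mean of at least 50 FPKM). The comparison, the classes and these rules were chosen with earlier results of these data known. The alternatives changed the pseudocount (0.5, 0.1), the filter (none, or a mean of 5 FPKM), the scaling (median ratio, quantile), the libraries fitted (all 12, or each left out), the variance trend and the library weights, or added a replicate block.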

Additional observations from a re-analysis of the deposited data

Results flagged for a closer look

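In 3 of the named genes the difference between EB and adjuvant was not the same at 24 h as at 12 h, by the interaction test over 12 libraries, which 8.66% of all tested genes passed. The effect at 24 h minus that at 12 h was -1.44 log2 units for BXY_0325100 (limma adjusted p = 0.00891), -2.53 for BXY_0293300 (limma adjusted p = 0.00295) and 0.98 for BXY_0512800 (limma adjusted p = 0.0286). With weights per time point the limma adjusted p was 0.00567, 0.000883 and 0.0432, and after median ratio scaling 0.00939, 0.00147 and 0.0741, so the last of the 3 was then no longer past the threshold. These genes were chosen for their difference at 12 h, and their values are no separate evidence that the times differ. The other 7 named genes did not pass the test.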

How the results depend on the processing

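The count of 0 calls held in limma under all alternatives but 2, since the fit of all 12 libraries and the weights per library each gave 17. Genes at an unadjusted p under 0.05 then numbered 1638 and 2990, and 245 to 982 with a library left out. Non-overlapping genes numbered 1884 to 3403 with a library left out, when 2 values are set against 3. Intervals within 2-fold numbered 7868 to 9346 with a library left out, 8653 with a pseudocount of 0.5 and 8008 with one of 0.1. The median difference was 0.0071 after median ratio scaling, -0.024 after quantile normalization and -0.070 to -0.038 with a library left out. The median SD was 0.16 to 0.28 in EB12 and 0.16 to 0.25 in EC12 with a library of the group left out. Genes 2-fold higher numbered 64 to 451 and 2-fold lower 35 to 103 with a library left out, 160 and 24 after median ratio scaling and 156 and 27 after quantile normalization (alternatives chosen after seeing the data). Among 24 h calls of at least 2 log2 units, 33 of 35 estimates lay outside the 12 h interval, and 436 to 549 at 2-fold with a library left out. Both sets were picked for the size of the 24 h estimate, which favours such counts.

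Signs turned for the median difference after median ratio scaling, as given, and for 3 named genes that were not called at 12 h. BXY_0569100 stood at 0.0039 log2 units after median ratio scaling, 0.10 with weights per library and -0.15 to 0.025 with a library left out. BXY_1469100 stood at 0.0046, 1.85 and -0.74 to 1.24. The time difference of BXY_1595200 was -0.010 after median ratio scaling. The causes were not tested.

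Whether the replicate numbers pair the libraries could not be decided, since the labels do not say and the correlations were mixed. The 3 deviations of a gene within a group sum to 0, which also ties the correlations of deviations to each other. Deviations from the group means correlated at 0.35, 0.15 and -0.05 for numbers 1, 2 and 3, and at -0.58 to 0.54 for different numbers. EB12 replicate 2 correlated best with EC12 replicate 3, at 0.54. With the replicate block limma gave 0 calls (smallest limma adjusted p = 0.0953) and 770 genes at an unadjusted p under 0.05. Intervals within 2-fold then numbered 10153, against 9498 without the block. Read totals are unknown, and the intervals were widest for genes under 20 FPKM.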
